A study of Drosophila melanogaster with 12 samples.

Results

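The genes described here code for larval storage and fat body proteins of Drosophila melanogaster: the larval serum proteins Lsp1alpha, Lsp1beta, Lsp1gamma and Lsp2 and the fat body proteins Fbp1 and Fbp2. They were chosen by name as larval or young-adult fat body products that can mark differences in age. Of the 6 genes, 3 had a probe set that the array's annotation assigns to a single gene (Fbp1, Fbp2 and Lsp2), out of 11982 genes measured in this way. The annotation assigned no such probe set to Lsp1alpha, Lsp1beta and Lsp1gamma, which are not analysed here. The choice of a probe set by its mean over the 12 arrays never had to be made, because each of the 3 genes had exactly 1 probe set.

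Larval serum proteins are hexamerins, large haemolymph proteins that the fat body of the feeding larva secretes. Before metamorphosis the fat body takes them back up and keeps them as a store of amino acids for building the adult. Fbp1 is the fat body receptor for this uptake and is induced by the steroid hormone ecdysone. Fbp2 belongs to the short-chain dehydrogenases and is a relative of alcohol dehydrogenase. Larval fat cells survive into early adult life and then die, and Lsp2 is also made by the adult fat body.

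RNA of whole males was measured on 12 Affymetrix arrays, 3 in each of 4 groups, with 8 flies pooled per array. The groups were F1 males whose mothers had been exposed to methylphenidate and whose fathers to sucrose, F1 males whose parents had both been exposed to sucrose, males exposed to methylphenidate for 24 hours, and males exposed to sucrose for 24 hours. Methylphenidate is a psychostimulant that blocks the dopamine transporter. The titles call all flies wild type. The sources used here give neither strain nor age, neither the parents' exposure time nor, beyond the agents of the cross, what the F1 males were fed, so that generation cannot be told apart from age, food or handling. The series text describes a single cross for the F1 flies, whereas their individual labels give a pair of crosses, and the individual labels were used. Whether replicates were separate cultures is not stated, and the p-values reflect the spread among the arrays, which may be technical.

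The flies had the transcripts of adult males. The 7 accessory gland markers measured, seminal fluid genes, had log2 signals of at least 7.02 on every array. The 8 eggshell genes measured had at most 1.15. The medians of 11 arrays lay between 1.49 and 1.57 on the log2 scale, and that of replicate 3 of the F1 males of sucrose-exposed parents was 1.37. Values under 0.5, near the floor, made up 36.8% to 38.8% of the probe sets of an array, and fold differences against such values are understated.

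Fbp1 was near the floor in exposed males and well above it in F1 males. Its log2 signal was 4.44, 3.37 and 4.51 in F1 males of methylphenidate-exposed mothers, 3.29, 3.04 and 1.88 in F1 males of sucrose-exposed parents, 2.10, 0.46 and 0.57 in methylphenidate-exposed males, and 0.40, 0.47 and 0.32 in sucrose-exposed males (replicates 1, 2 and 3 each). Replicate 1 of the methylphenidate-exposed males was the only array of exposed males above 1, and it lay above replicate 3 of the F1 males of sucrose-exposed parents.

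Fbp2 had the same order of groups. It measured 5.16, 3.94 and 4.90 in F1 males of methylphenidate-exposed mothers, 3.77, 4.03 and 2.25 in F1 males of sucrose-exposed parents, 2.02, 0.81 and 0.38 in methylphenidate-exposed males, and 0.66, 0.53 and 0.40 in sucrose-exposed males. Every F1 array was above every array of exposed males.

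Lsp2 was strongly expressed in all groups. Its log2 signal was 9.18, 8.74 and 9.12 in F1 males of methylphenidate-exposed mothers, 8.88, 8.16 and 7.97 in F1 males of sucrose-exposed parents, 7.94, 6.64 and 6.86 in methylphenidate-exposed males, and 6.76, 6.26 and 7.83 in sucrose-exposed males. On each array at least 92.9% of probe sets had a lower value. The F1 arrays again lay above all arrays of exposed males, the lowest F1 array (7.97) just above the highest array of exposed males (7.94).

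**Figure D1:**
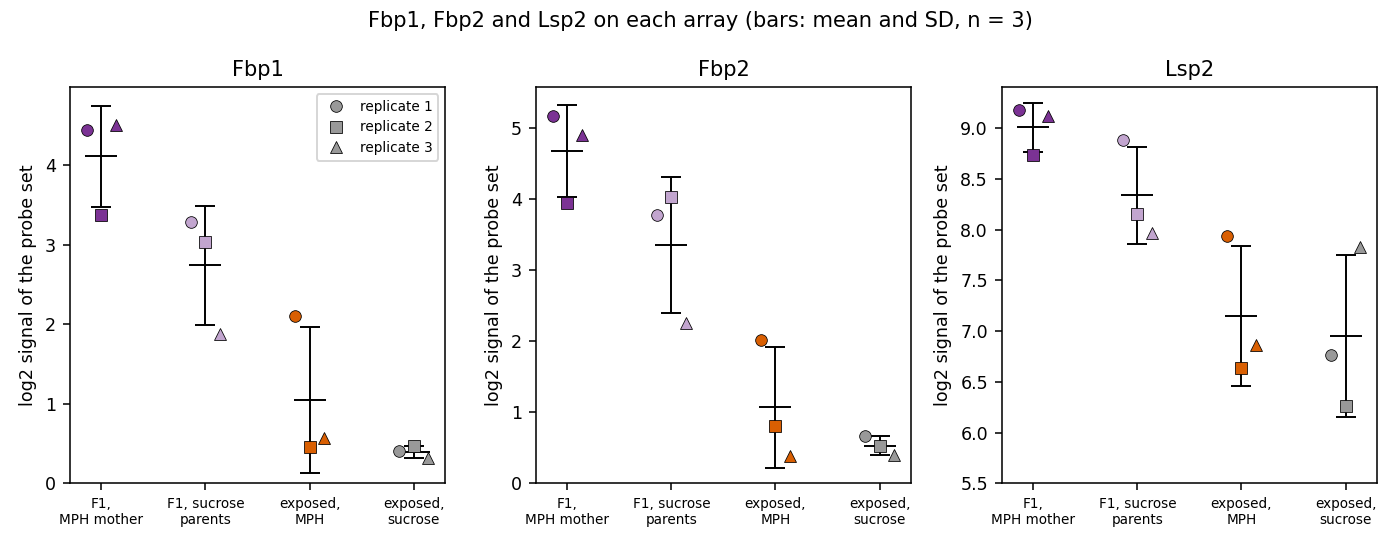
Log2 signal of Fbp1, Fbp2 and Lsp2 on each array, by group (MPH is methylphenidate). Symbols are arrays, marked by replicate number, and horizontal bars give the group mean with its SD (n = 3); the Lsp2 axis starts at 5.5. All 3 genes are highest in F1 males of methylphenidate-exposed mothers, and replicate 1 of the methylphenidate-exposed males stands above the other arrays of its group.

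In every gene the group means fell in the order F1 males of methylphenidate-exposed mothers, F1 males of sucrose-exposed parents, methylphenidate-exposed males and sucrose-exposed males. For Fbp1 they were 4.11 ± 0.639, 2.74 ± 0.751, 1.05 ± 0.915 and 0.39 ± 0.0781 (SD, n = 3 each). For Fbp2 they were 4.67 ± 0.644, 3.35 ± 0.960, 1.07 ± 0.849 and 0.53 ± 0.131, and for Lsp2 9.01 ± 0.240, 8.34 ± 0.477, 7.15 ± 0.692 and 6.95 ± 0.799. Among neighbours in this order, the groups of exposed males overlapped in all 3 genes, and the F1 groups overlapped in Fbp2 and Lsp2 but not in Fbp1. The F1 males of sucrose-exposed parents and the methylphenidate-exposed males overlapped in Fbp1 alone.

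F1 males of sucrose-exposed parents against sucrose-exposed males is the comparison of generations without drug. It is given as a description, because the genes were proposed with earlier results of these arrays known, differences between generations among them. Fbp2 averaged 3.35 in F1 males and 0.53 in sucrose-exposed males, a log2 difference of 2.82 ± 0.45 (SE) or 7.07-fold, the largest increase of the 18769 probe sets tested. Fbp1, with 2.74 and 0.39, differed by 2.34 ± 0.42 (5.06-fold), rank 12 among the increases. Lsp2, with 8.34 and 6.95, differed by 1.38 ± 0.37 (2.61-fold), rank 69. All 3 passed the threshold of limma (Benjamini-Hochberg adjusted p under 0.05), as did 6.33% of all probe sets as increases. Values did not overlap in any of the 3, which was so for increases in 11.6% of all probe sets. Lsp2 no longer passed without replicate 1 of these F1 males (1.11), without replicate 1 or 2 of the sucrose-exposed males (1.29 and 1.04), or with trend and robust settings (1.38).

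F1 males of methylphenidate-exposed mothers against methylphenidate-exposed males takes its means from the other 6 arrays. Its SE and p rest on a spread estimated over all 12 arrays. It is a description too, because earlier results of these arrays were also known when the genes were proposed. The labels give methylphenidate to the mothers of these F1 males, so the comparison holds the drug exposure as well as the generation. Fbp2 averaged 4.67 in F1 males and 1.07 in exposed males, a log2 difference of 3.60 ± 0.45 (SE), with a 95% interval of 2.63 to 4.56 and 12.1-fold (limma adjusted p = 0.000154). Fbp1, with 4.11 and 1.05, differed by 3.06 ± 0.42 (interval 2.16 to 3.97, 8.36-fold, limma adjusted p = 0.000343). Lsp2, with 9.01 and 7.15, differed by 1.87 ± 0.37 (interval 1.07 to 2.66, 3.65-fold, limma adjusted p = 0.00556). All 3 rose, each with 3 of 3 F1 arrays above every exposed array, where 4.76% of all probe sets passed as increases and 12.6% did not overlap upwards. Their ranks among the increases were 6, 11 and 39.

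**Figure D2:**
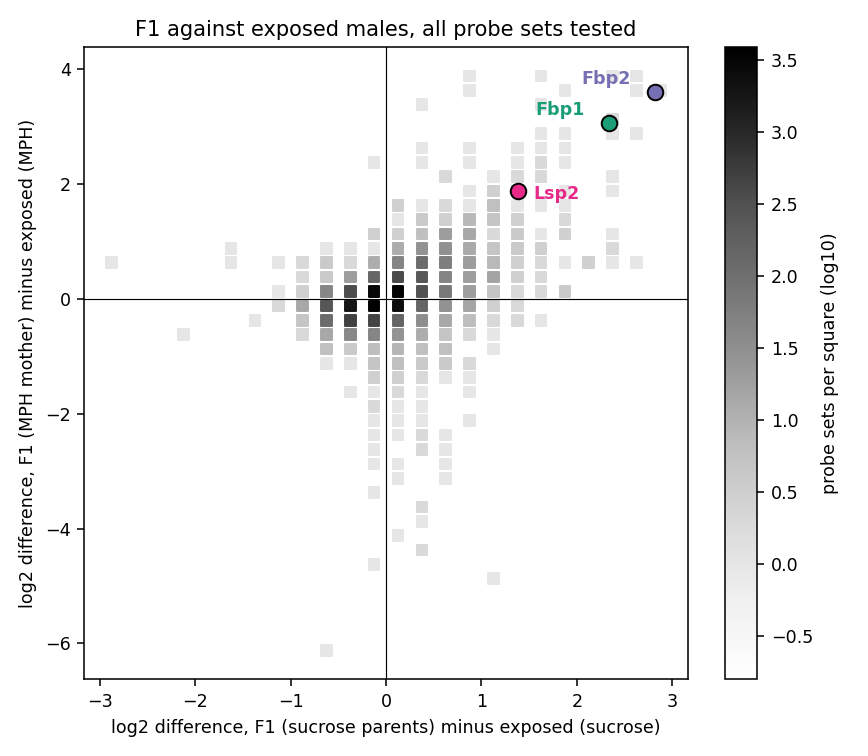
Log2 differences of all 18769 probe sets between F1 and exposed males, at sucrose on the horizontal axis and at methylphenidate (MPH) on the vertical axis, which share no arrays. Grey squares give the number of probe sets on a log10 scale. Fbp1 and Fbp2 lie in the upper right corner, at 2.34 and 3.06 and at 2.82 and 3.60, and Lsp2 at 1.38 and 1.87.

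The maternal comparison asked whether sons of drug-exposed mothers differed from sons of sucrose-exposed parents. None of the 3 genes passed in limma, and 0.00533% of all probe sets passed as increases. At an unadjusted p under 0.05 there were 2 of the 3, Fbp1 and Fbp2, and 8.06% of all probe sets. Fbp1 averaged 4.11 in F1 males of methylphenidate-exposed mothers and 2.74 in F1 males of sucrose-exposed parents. The log2 difference was 1.37 ± 0.42 (SE), with a 95% interval of 0.47 to 2.28 and 2.59-fold (limma adjusted p = 0.461). The values of Fbp1 did not overlap, as in 7.56% of probe sets upwards.

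Fbp2 averaged 4.67 and 3.35 in the same order, a difference of 1.32 ± 0.45 (interval 0.35 to 2.28, 2.49-fold, limma adjusted p = 0.531). Lsp2 averaged 9.01 and 8.34, a difference of 0.68 ± 0.37 (interval -0.12 to 1.48, 1.60-fold, limma adjusted p = 0.674). By size alone, Fbp1 and Fbp2 were the second and the third of all increases in this comparison (ranks 2 and 3), and Lsp2 had rank 19. Such ranks favour transcripts that vary widely, and at least 99.8% of all probe sets had a smaller SD within groups than each of these genes. The ranks are a description, because earlier results of these arrays were known when the genes were proposed. Without replicate 3 of the F1 males of sucrose-exposed parents, which was the lowest of its group in each gene, the differences were 0.95 in Fbp1, 0.77 in Fbp2 and 0.50 in Lsp2. Without replicate 2 of the F1 males of methylphenidate-exposed mothers, the lowest of its group in each gene, they were 1.74, 1.68 and 0.82. None passed in either fit.

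The direct comparison asked what 24 hours of methylphenidate did to these transcripts. None passed, and none had an unadjusted p under 0.05, where 2.38% of all probe sets passed as increases and 15.3% had such a p. Values of the groups overlapped in all 3 genes, while 9.28% of probe sets did not overlap upwards. Fbp1 averaged 1.05 in methylphenidate-exposed and 0.39 in sucrose-exposed males, a log2 difference of 0.65 ± 0.42 (SE, interval -0.25 to 1.55, limma adjusted p = 0.543). Fbp2, with 1.07 and 0.53, differed by 0.54 ± 0.45 (interval -0.43 to 1.51, limma adjusted p = 0.671). Lsp2, with 7.15 and 6.95, differed by 0.20 ± 0.37 (interval -0.60 to 0.99, limma adjusted p = 0.884). Without replicate 1 of the methylphenidate-exposed males the differences were 0.12 in Fbp1, 0.07 in Fbp2 and -0.20 in Lsp2. The largest differences when a single array was left out were 0.94 in Fbp1, 0.89 in Fbp2 and 0.63 in Lsp2, and none passed.

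The drug effect was also compared between the generations. The F1 effect minus the effect in exposed males was 0.72 ± 0.60 (SE) in Fbp1, 0.78 ± 0.64 in Fbp2 and 0.48 ± 0.53 in Lsp2 (limma adjusted p = 0.615, 0.612 and 0.726). The intervals ran from -0.56 to 2.0, from -0.59 to 2.14 and from -0.65 to 1.61, and 0.671% of all probe sets passed as increases.

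**Figure D3:**
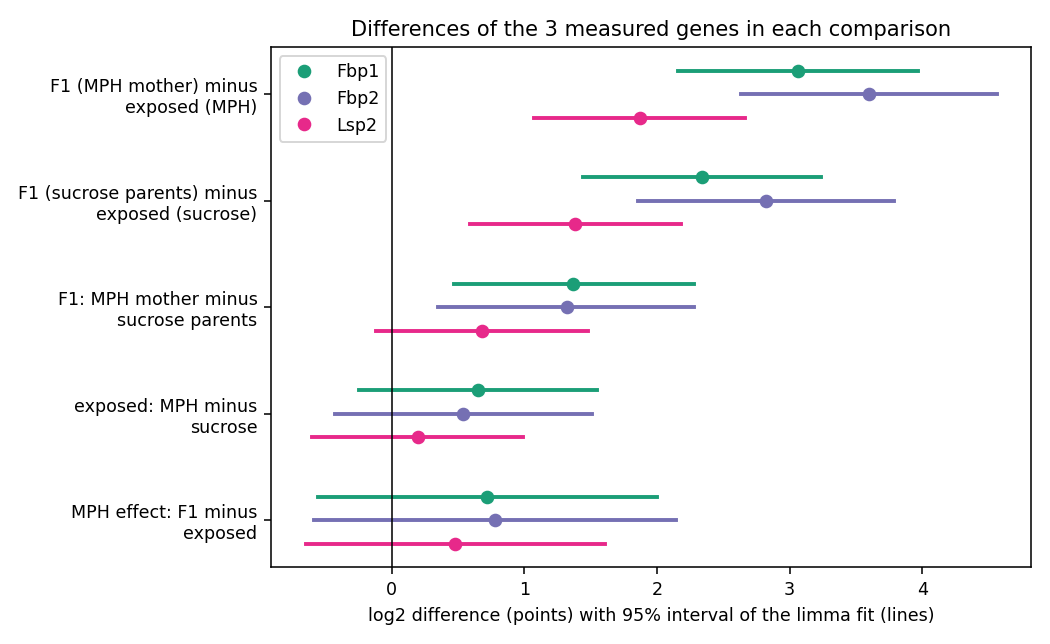
Log2 differences of Fbp1, Fbp2 and Lsp2 in the 5 comparisons (points), with the 95% interval of the limma fit (lines); MPH is methylphenidate. The intervals of both comparisons of F1 with exposed males lie above 0, while those of the drug effect in exposed males and of the difference between generations include 0 in all 3 genes.

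The 3 genes varied more within groups than most of the array. The SD within groups was 0.674 in Fbp1, 0.720 in Fbp2 and 0.592 in Lsp2, against a median of 0.114 over all probe sets. Among probe sets whose mean lay within 0.5 of theirs, 99.5%, 99.6% and 99.7% had a smaller SD. Fbp1 and Fbp2 deviated on the same arrays, and their deviations from the group means had a Pearson r of 0.943 over the 12 arrays. It was 0.625 between Fbp1 and Lsp2 and 0.513 between Fbp2 and Lsp2. These values describe arrays that share group means and normalization.

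Single arrays carried much of this spread. Replicate 1 of the methylphenidate-exposed males exceeded the mean of the other arrays of its group by 1.58 in Fbp1, 1.42 in Fbp2 and 1.18 in Lsp2, and 5, 9 and 18 of the 18769 probe sets had a larger excess. Other transcripts were lower on this array than on the rest of its group. GstD2, a glutathione S-transferase, measured 6.50 there and 7.43 to 7.94 on the other arrays, and the cytochrome P450 gene Cyp6a14 measured 4.58 there and 5.89 to 7.06 on the others; both were picked after their values had been seen. Replicate 2 of the F1 males of methylphenidate-exposed mothers was lower than the other arrays of its group by 1.11 in Fbp1 and by 1.09 in Fbp2, the ranks 3 and 4 among the decreases on that array. Replicate 3 of the F1 males of sucrose-exposed parents differed from the mean of its group's other arrays by -1.28 in Fbp1, -1.65 in Fbp2 and -0.55 in Lsp2. These had ranks 16, 10 and 180 among the decreases on that array, whose median was the lowest (1.37).

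Lsp2 did not always follow Fbp1 and Fbp2. On replicate 3 of the sucrose-exposed males Lsp2 exceeded the mean of the other arrays by 1.31, and 1 probe set had a larger excess. Fbp1 and Fbp2 were at -0.12 and -0.20 on the same comparison. Both were near the floor in that group (0.32 to 0.47 and 0.40 to 0.66), where differences are understated.

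The transcripts most like the 3 genes had a smaller span of group means. Fbp1 and Fbp2 were most like each other (Pearson r = 0.990 over the 12 arrays). Among the 7252 other genes with a mean signal of at least 2, Fbp1 was most like AP-2sigma, a subunit of a clathrin adaptor complex (Pearson r = 0.977), DhpD, a dihydropterin deaminase (r = 0.976), and Daao2, a D-amino acid oxidase (r = 0.962). Fbp2 was most like AP-2sigma (r = 0.980), CG14259 (r = 0.979) and the beta-tubulin gene betaTub97EF (r = 0.978). Lsp2 was most like CG16756 (r = 0.943), CaBP1, a protein disulfide isomerase (r = 0.943), and Sec22, a SNARE of transport between endoplasmic reticulum and Golgi (r = 0.941). Mean values of AP-2sigma were 5.11 in F1 males of methylphenidate-exposed mothers, 4.98 in F1 males of sucrose-exposed parents, 4.81 in methylphenidate-exposed and 4.71 in sucrose-exposed males. The likeness of all these genes includes the difference between generations: an r over 0.9 was reached by 119 genes for Fbp1, 172 for Fbp2 and 20 for Lsp2.

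Other products of larvae and pupae were mostly at the floor. Of 18 measured genes of this kind, which include salivary glue (Sgs), ecdysone-induced (Eig71E, ImpE) and cuticle genes (Edg, Lcp9), 16 stayed under 1 on every array, the highest value being 0.59. None passed as an increase in either comparison of F1 with exposed males (16 and 13 had positive differences; medians 0.06 and 0.09, against -0.06 and -0.03 over all genes). MsrA, an ecdysone-induced methionine sulfoxide reductase, was lower in F1 males of methylphenidate-exposed mothers than in methylphenidate-exposed males, at -0.74 ± 0.20 (SE, limma adjusted p = 0.0394). It was higher in methylphenidate-exposed than in sucrose-exposed males (0.99 ± 0.20, limma adjusted p = 0.0142), and its difference between generations at sucrose was 0.16 ± 0.20 (limma adjusted p = 0.689). Edg91, ImpE2 and Eig71Ed, next by p in the list, stayed at or under 0.28 in all group means.

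Of the relatives by sequence family, 1 was called higher in F1 males, at methylphenidate only. The prophenoloxidases PPO1 and PPO2, enzymes of melanin formation from the hemocyanin superfamily to which hexamerins belong, had lower means in F1 males. PPO1 averaged 1.87 in F1 males of methylphenidate-exposed mothers and 3.11 in methylphenidate-exposed males (-1.24 ± 0.38 SE, limma adjusted p = 0.0576), and PPO2 2.36 and 3.16 (-0.80 ± 0.25, limma adjusted p = 0.0630). Neither passed, and PPO3 was at the floor. Of the 4 measured relatives, the dehydrogenase gene Pdh alone passed, in the same comparison (0.38 ± 0.10, limma adjusted p = 0.0346). Over all genes 6.34% were called higher there. At sucrose Pdh differed by 0.12 ± 0.10 and did not pass. Adh and Adhr had no single-gene probe set under their names.

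Few genes that regulate or dismantle the fat body passed the test. Of 14 regulators, among them EcR, usp, br and srp, none was higher in F1 males. The nuclear receptor gene svp was lower at sucrose (-0.32 ± 0.10 SE) and the nuclear receptor gene Hnf4 at methylphenidate (-0.38 ± 0.11), with limma adjusted p = 0.0326 and 0.0476; Hr39 and ftz-f1 did not pass. Over all probe sets 14.2% and 3.76% were called lower in these comparisons. Of 10 remodelling genes, the autophagy genes Atg7 (-0.34 ± 0.10) and Atg8b (-0.36 ± 0.09) were lower at sucrose (limma adjusted p = 0.0222 and 0.00860), the caspase gene Dronc was higher at methylphenidate (0.48 ± 0.11, limma adjusted p = 0.0159), and Dcp-1 did not pass in any comparison. The median differences of the regulators were -0.14 at sucrose and -0.07 at methylphenidate. The RNA came from whole males, and which tissue gave the signal of Atg7, Atg8b and the other genes of these lists was not tested. At sucrose 11 of 12 testis markers were lower as well.

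Adult fat body transcripts moved both ways. Of 21 genes, 8 were higher and 3 lower in F1 males at sucrose, and 6 were higher and 1 lower at methylphenidate, with medians of 0.19 and 0.13. Over all 11982 genes 8.63% were called higher and 19.0% lower at sucrose, and 6.34% higher and 5.03% lower at methylphenidate. The feeding-related peptide gene fit averaged 6.74 in F1 males of methylphenidate-exposed mothers and 2.98 in methylphenidate-exposed males (3.76 ± 0.27 SE, 13.5-fold, limma adjusted p = 1.04e-06), and 5.70 and 4.74 in the sucrose groups (0.95 ± 0.27, limma adjusted p = 0.0212). Obp99b, an odorant-binding protein gene, averaged 8.47 in F1 males of methylphenidate-exposed mothers and 6.21 in methylphenidate-exposed males (2.25 ± 0.23, limma adjusted p = 3.09e-05), and 7.55 and 7.14 in the sucrose groups (0.41 ± 0.23, limma adjusted p = 0.267, values overlapping). Sodh1, a sorbitol dehydrogenase gene, was higher in F1 males at sucrose (1.32 ± 0.14, limma adjusted p = 0.000104) and differed by 0.01 ± 0.14 at methylphenidate (limma adjusted p = 0.989). AkhR, the receptor of adipokinetic hormone, was lower at sucrose (-1.0 ± 0.11) and higher at methylphenidate (0.55 ± 0.11), with limma adjusted p = 0.000168 and 0.00690.

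The yolk protein gene Yp3, picked after its values had been seen, was higher in F1 males in both comparisons. Its means were 3.18 in F1 males of methylphenidate-exposed mothers, 3.19 in F1 males of sucrose-exposed parents, 1.70 in methylphenidate-exposed and 1.80 in sucrose-exposed males (1.48 ± 0.16 and 1.39 ± 0.16, limma adjusted p = 4.42e-05 and 0.000182). Yp1 stayed at the floor, at most 0.04 in a group mean. The count of 8 higher genes at sucrose was 4 to 6 when single arrays were left out, and 3 when the 3′ to 5′ gap of GAPDH signals (an RNA integrity measure) entered the fit.

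Of 11 genes of amino acid storage and nutrient signalling, 1 was higher and 1 lower in F1 males at sucrose, and 3 were higher and 1 lower at methylphenidate. The shares over all genes were 8.63% higher and 19.0% lower at sucrose, and 6.34% and 5.03% at methylphenidate. CCHa2, a peptide hormone gene of fat body and gut, averaged 5.48 in F1 males of methylphenidate-exposed mothers and 3.93 in methylphenidate-exposed males (1.55 ± 0.09 SE, limma adjusted p = 2.03e-07). The amino acid transporter gene JhI-21 was higher in F1 males in both comparisons (0.63 ± 0.10 at sucrose and 0.53 ± 0.10 at methylphenidate), and the activin ligand gene daw lower (-0.76 ± 0.09 and -0.58 ± 0.09). Gbp1, a growth-blocking peptide gene, was higher at methylphenidate (0.61 ± 0.09, limma adjusted p = 0.000517). At sucrose CCHa2 and Gbp1 did not pass. CCHa2 measured 5.18, 5.17 and 4.88 in F1 males of sucrose-exposed parents and 4.93, 4.79 and 4.86 in sucrose-exposed males. Of the 78 genes of all 6 lists, none passed between the F1 groups in limma. An unadjusted p under 0.05 was found for 8 of them, and for 8.06% of all probe sets.

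**Figure D4:**
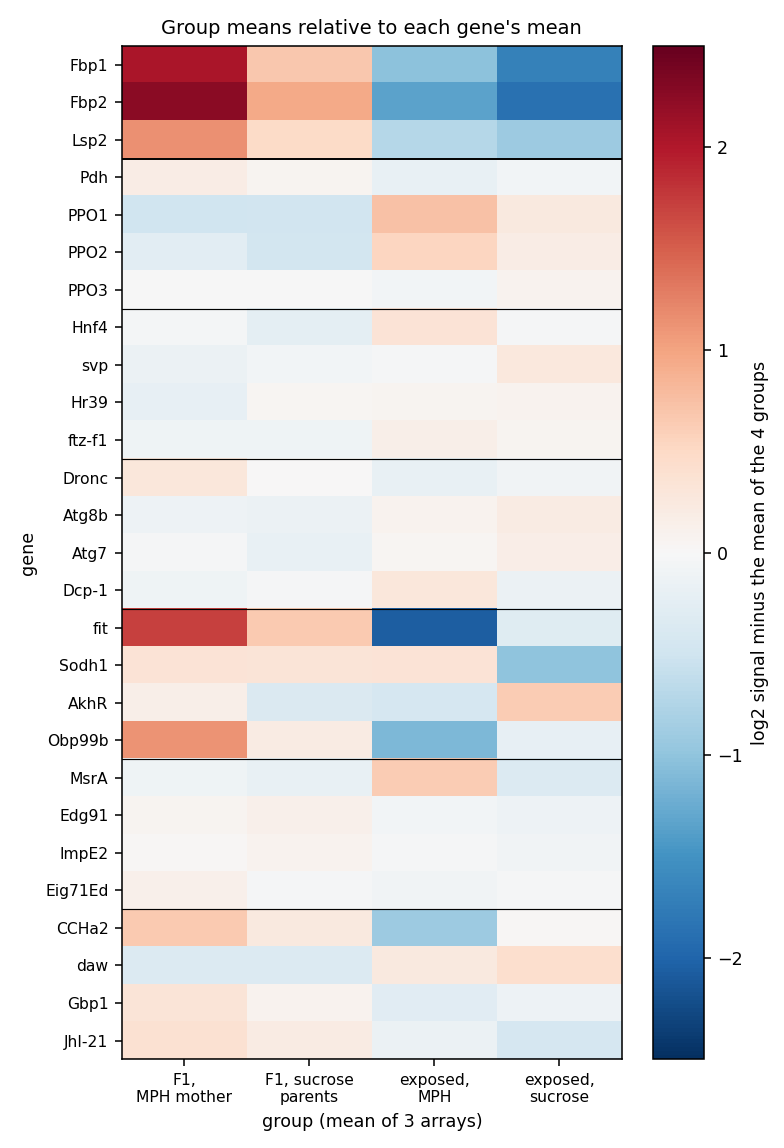
Mean log2 signal of each group minus the mean of the 4 groups (colour), for Fbp1, Fbp2 and Lsp2 (top) and up to 4 genes with the smallest p from each of the 6 lists, separated by lines; MPH is methylphenidate. Fbp1 and Fbp2 have the widest span with fit, while PPO1 and PPO2 run the other way.

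Markers of several other tissues moved with the generations too, and their part in the results was not tested. Over all 11982 genes 8.63% were called higher and 19.0% lower at sucrose, and 6.34% higher and 5.03% lower at methylphenidate. None of 3 oenocyte markers passed in either comparison of generations. Of 6 neuron markers 1 was lower at sucrose and none passed at methylphenidate. Of 12 female markers 1, Yp3, was higher in each. In whole flies, more cells of a type and more RNA per cell cannot be told apart. Of 10 gut markers 8 were higher in F1 males in each comparison of generations, and their summed linear signal was 3310 to 3730 in F1 males of methylphenidate-exposed mothers, 3820 to 4290 in F1 males of sucrose-exposed parents, 2020 to 2580 in methylphenidate-exposed and 2520 to 3140 in sucrose-exposed males. Of 6 muscle markers 4 were higher at sucrose and 5 at methylphenidate, and of 7 accessory gland markers 3 and 5. Of 12 testis markers 11 were lower in F1 males at sucrose and 1 at methylphenidate. Of 3 photoreceptor markers 2 were lower at sucrose and 1 at methylphenidate. Their summed signal was 662 to 707 in F1 males of methylphenidate-exposed mothers, 604 to 691 in F1 males of sucrose-exposed parents, 828 to 864 in methylphenidate-exposed and 869 to 935 in sucrose-exposed males. Of 10 haemocyte markers 2 were higher at sucrose and 3 at methylphenidate. Among them in both were the collagen genes Col4a1 and vkg, which the fat body expresses as well. PPO1 and PPO2, also in this list, had lower means in F1 males and did not pass. Their differences were -0.72 and -0.64 at sucrose and -1.24 and -0.80 at methylphenidate. Col4a1 and vkg had the highest group means of the 10 markers and so weigh most in the summed signal. The haemocyte sum was 165 to 183 in F1 males of methylphenidate-exposed mothers, 136 to 183 in F1 males of sucrose-exposed parents, 113 to 152 in methylphenidate-exposed and 114 to 132 in sucrose-exposed males. It was highest among the methylphenidate-exposed males on replicate 1, where Fbp1 and Fbp2 were high, and lowest among the F1 males of sucrose-exposed parents on replicate 3, where they were low. On replicate 2 of the F1 males of methylphenidate-exposed mothers, where Fbp1 and Fbp2 were also low, it was the highest of its group (183, against 165 and 167 on the other arrays).

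The log2 signal of the 3′ GAPDH control probe set exceeded that of the 5′ one, a measure of RNA integrity, by 1.5 to 1.54 in F1 males of methylphenidate-exposed mothers, 1.5 to 1.58 in F1 males of sucrose-exposed parents, 1.5 to 1.51 in methylphenidate-exposed and 1.53 to 1.70 in sucrose-exposed males. With it as a covariate the differences between F1 males and exposed males at sucrose were 2.07 in Fbp1, 2.56 in Fbp2 and 0.76 in Lsp2, of which Lsp2 did not pass. At methylphenidate they were 3.13, 3.66 and 2.03, and all passed. Without replicate 1 of the methylphenidate-exposed males and replicate 3 of the F1 males of sucrose-exposed parents together, differences at sucrose were 2.77 in Fbp1, 3.37 in Fbp2 and 1.57 in Lsp2, and at methylphenidate 3.59, 4.07 and 2.26, all past the threshold. Replicate 2 of the F1 males of methylphenidate-exposed mothers, low in Fbp1 and Fbp2, was kept in that fit; without it alone the differences at methylphenidate were 3.43, 3.96 and 2.0, all past the threshold.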

How the data were processed

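The authors deposited a table of log2 signals with 1 value for each probe set on each array. The submitters' processing notes name RMA, affy and limma, with neither versions nor order nor settings. The log base was checked on spike-in hybridization controls: between BioB (nominally 1.5 pM) and Cre (100 pM) the signal rose by 5.97, against 6.06 in log2 of the nominal ratio.

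The table held 18952 probe sets. After 183 controls had been removed, the remaining 18769 were tested with no filter on signal: 13647 with 1 gene, 402 with several (never named) and 4720 unnamed here. Of the 13647, 13544 were matched to RefSeq by gene identifier and took its symbol, whether or not it differed. Where a gene had several probe sets, that of the highest mean stood for it. In R 4.3.3, limma 3.58.1 fitted the means of the 4 groups to the 12 arrays in a single model (default eBayes, two-sided tests, Benjamini-Hochberg over all probe sets, threshold 0.05). The fit was tested on simulated data. Figures used Python 3.11.15 and matplotlib 3.10.9. The number of arrays limits the precision.

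The members, lists, contrasts and alternatives were chosen with earlier results of these data known, so that tests on the members are not independent evidence. Named were the 3 measured members, the 3 other genes most like each (not a member, mean signal of at least 2) and up to 4 genes per list with the smallest p in any contrast; genes beyond this rule were chosen after their values were seen. Deviations of same-numbered arrays from their group means had r of -0.17 to 0.13 between groups, and the titles do not say whether the numbers pair the arrays. Alternatives were a fit to the groups of a contrast alone, a block for the replicate number, removal of the dimmest 30%, quantile normalization, median centring, eBayes with trend and robust settings, averaging over the probe sets of a gene, and omission of single arrays in turn. The GAPDH covariate and the joint removal of replicate 1 of the methylphenidate-exposed males and replicate 3 of the F1 males of sucrose-exposed parents were added after the data had been seen.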

Additional observations from a re-analysis of the deposited data

Results flagged for a closer look

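The effect of methylphenidate differed between F1 and exposed males, by the fit's test of the difference itself, for 5 of the genes named beside Fbp1, Fbp2 and Lsp2. For fit the effect was 1.04 in F1 males and -1.76 in exposed males, a difference of 2.80 ± 0.38 (SE, log2, limma adjusted p = 0.000823). For Obp99b it was 0.92 and -0.93 (1.84 ± 0.33, limma adjusted p = 0.00813), for AkhR 0.50 and -1.05 (1.55 ± 0.16, limma adjusted p = 7.87e-05) and for CCHa2 0.40 and -0.93 (1.34 ± 0.13, limma adjusted p = 5.36e-05). For Sodh1 it was 0.02 and 1.34, a difference of -1.32 ± 0.19 (limma adjusted p = 0.00171). None of the F1 effects passed on its own. The list genes were named for the smallest p in any contrast, this difference among them, so the count of 5 depends on that choice. Over all 11982 genes 0.918% were called higher and 1.95% lower in the difference of effects. Groups of 3 arrays were too small for a test of single outlying arrays.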

How the results depend on the processing

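Under all planned and added alternatives Fbp1 and Fbp2 stayed past the threshold in both comparisons of F1 with exposed males (15 fits each), and so did Lsp2 at methylphenidate, with log2 differences of 1.61 to 2.26. At sucrose Lsp2 passed in 10 of 15 fits (0.76 to 1.82), so that single arrays left out gave 2 to 3 genes called; the cause was not tested. In the other comparisons no member passed in any alternative, and leaving out single arrays gave 0 to 0 calls there. Leaving out single arrays gave Lsp2 differences of -0.20 to 0.63 in exposed males. The sign of Lsp2 there turned without replicate 1 of the methylphenidate-exposed males (-0.20), without replicate 2 of the sucrose-exposed males (-0.15), with the GAPDH covariate (-0.72) and without replicate 1 of the methylphenidate-exposed males and replicate 3 of the F1 males of sucrose-exposed parents together (-0.20); the cause was not tested. With the replicate block, 3 members were called in each comparison of generations and 0 in the others, as without it. Whether the replicate numbers pair the arrays was not established. Of 960 counts of list genes under the alternatives, 91 moved, either by over 1.5 times or from or to 0. The difference of effects uses all groups, so a fit of its groups alone is the same fit. The signal of Fbp1 and Fbp2 near the floor in exposed males limits their fold differences.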
